A study of Mus musculus with 3 samples.

Results

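Cadherins and regulators of epithelial-mesenchymal transition were followed in cultured mouse mammary tumor cells through 10 genes chosen by name: Cdh1, Cdh2, Cdh3, Epcam, Esrp1, Snai1, Snai2, Twist1, Zeb1 and Zeb2. These are 10 of the 21154 genes named on the array, and 13 probes read them. Total RNA came from cultures of 3 tumors, each from a different MMTV-PyMT mouse, and the study asked which genes respond to RANKL (RL), the ligand of the receptor RANK. For each tumor, 1 array compared a control culture with a culture kept in RL for 24 h, which gives 3 control and 3 RL cultures. The RL culture carried the dye Cy3 for tumors 1 and 3 and Cy5 for tumor 2, and the control culture carried the other dye.

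Both groups of cultures share the tumor model and the medium. The transgene, polyoma virus middle T antigen, is driven by the MMTV promoter, which is active mainly in mammary epithelium. Strain and age of these 3 mice are not given in the labels. Cells were kept in DMEM F12 with FBS, P/S, cholera toxin, insulin and EGF. The dose of RL is 1000 µg/mL in the labels and 1 µg/mL in the study's methods, so it is not settled here, and those methods place its addition 24 h after plating. They also describe dye swaps for every sample, while the deposit holds 1 array a tumor, and whether further arrays were made is not known. The paper with these methods names another deposit for its mouse arrays, so how far they describe these cultures is not settled either. Precision is limited by how few arrays there are, and because each tumor was read on 1 array, tumor and array cannot be told apart.

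Epithelial cells hold to each other through classical cadherins, whose cytoplasmic tails bind catenins that connect to actin. In epithelial-mesenchymal transition, repressors of the Snail, Twist and Zeb families lower Cdh1 and other epithelial genes, and N-cadherin often becomes more abundant in place of E-cadherin. In the mammary gland, luminal cells carry E-cadherin, the basal layer carries P-cadherin, and Snai2 is known from basal and progenitor cells.

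Levels are given as log2 intensity after normalization, on a scale whose lowest possible value is 5.64, and each change is log2 of RL over control on the same array. Of the 13 probes, 12 were marked by the scanner software as well above background in all 6 channels, and 0 lay in a saturated spot. All 10 genes were therefore tested, among 21743 genes and transcripts. The mean changes of the 10 genes ran from −0.08 to 0.17 with a median of −0.01, beside a median of −0.00 over all genes tested. Limma called 0 of the 10 at an adjusted p under 0.05, where it called 6 of 21743 overall (0.0276%). At an unadjusted p under 0.05 limma took 1 of the 10, Cdh2, beside 7.17% of all genes, and the rank product took 0 of the 10, beside 0.419%. With a dye term in the fit, limma called 0 of the 10 beside 1.44% of all genes. The 95% intervals of the 10 changes reached from −0.41 to 0.35 at their widest, both bounds being those of Cdh3. The count over all genes depends on tumor 2, whose array alone has RL in Cy5: without it limma called 636 genes raised and 927 lowered, in place of 1 and 5. Both arrays left then carry RL in Cy3, so dye and RL cannot be told apart in those counts.

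Across tumors, 1 of the 10 genes had a ratio above 0 in all 3 (Cdh2), beside 14.2% of all genes. Another 1 had a ratio below 0 in all 3 (Esrp1), beside 13.3%. The other 8 were mixed in sign. Differences between tumors were wider than those between cultures of a tumor for several genes: 3 of the 10 (Cdh3, Snai2 and Zeb1) spanned more than 2-fold between their highest and lowest tumor, beside 7.39% of all genes, and the median range was 0.79 beside 0.27. For 5 of the 10 (Cdh3, Snai1, Snai2, Zeb1 and Zeb2) the control and RL levels of each tumor stood apart from those of both other tumors, beside 33.4% of all genes. In 7 of the 10 tumor 1 was lowest, beside 36.7%. With 1 array a tumor, these differences between tumors have no test, and in bulk RNA fewer cells of a type and less RNA per cell cannot be told apart.

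**Figure D1:**
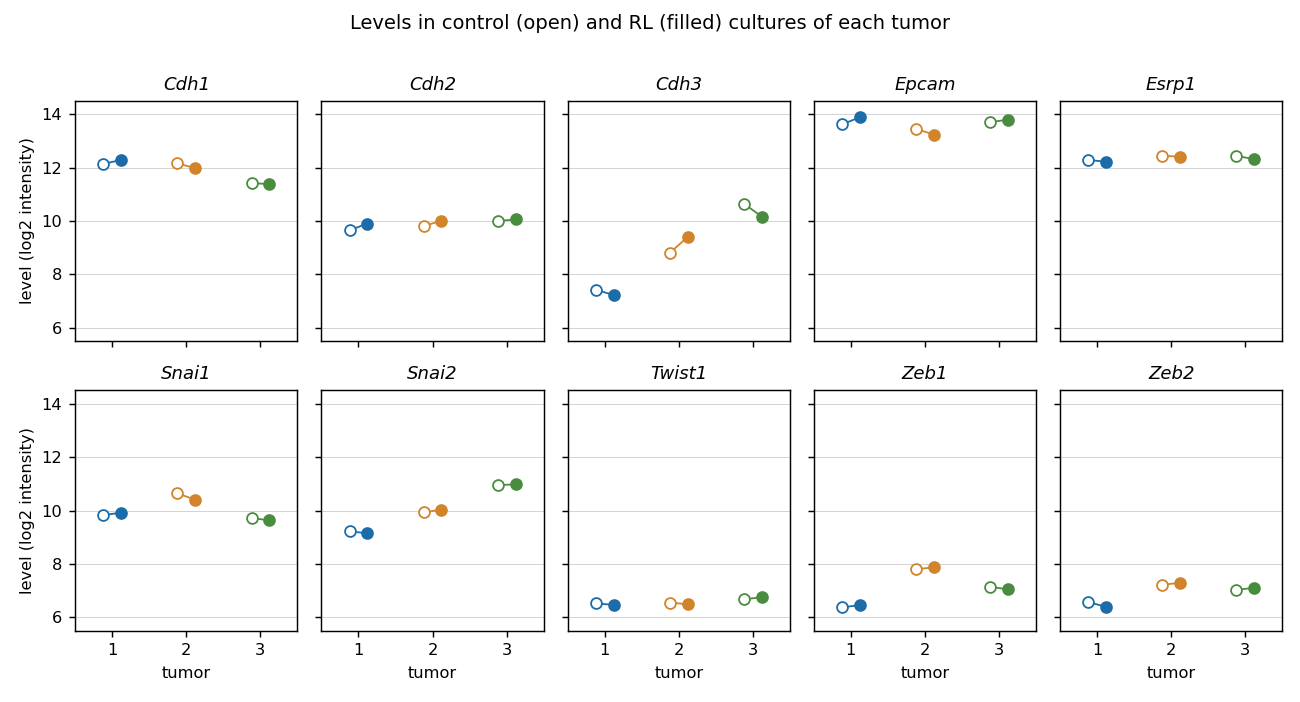
Level (log2 intensity) of each of the 10 genes in the control (open) and RL (filled) cultures of tumors 1, 2 and 3, 1 point a culture, with a line joining the cultures of a tumor. For Cdh3 the points spread from 7.23 to 10.65, with the cultures of tumor 1 lowest and those of tumor 3 highest, while for Esrp1 they stay between 12.22 and 12.44.

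Cdh1 (NM_009864) encodes E-cadherin, the adhesion molecule of the epithelial adherens junction. The control cultures of tumors 1, 2 and 3 read 12.14, 12.16 and 11.42. RL cultures read 12.29, 11.98 and 11.38 in the same order. Both cultures of tumor 3 lay below those of the other tumors, whose 4 cultures overlapped between control and RL. The ratios were 0.15, −0.18 and −0.04, a mean of −0.02 (SE 0.08, 95% interval −0.21 to 0.16, n = 3; limma adjusted p = 0.970). Without tumor 2 the mean was 0.06, without tumor 1 it was −0.11, and with median centering it was −0.19. The probe for Cdh1 is printed 10 times on each array, so its scatter within an array can be seen: 8 spots used in tumor 1 ran from 12.11 to 12.31, 10 in tumor 2 from 11.85 to 12.28, and 10 in tumor 3 from 11.23 to 11.59. The spots of tumor 3 did not overlap those of tumors 1 and 2, which overlapped each other. These spots share 1 RNA sample a channel and are not replicates of a tumor. The Cdh1 level was 1.75-fold higher in tumor 1 than in tumor 3.

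Cdh2 (NM_007664) encodes N-cadherin, the cadherin of neurons and many mesenchymal cells. In the control cultures its brighter probe read 9.65, 9.81 and 10.001 in tumors 1, 2 and 3, and in the RL cultures 9.91, 10.01 and 10.06. Within each tumor the RL culture was the higher, although the RL culture of tumor 1 stood below the control culture of tumor 3, so the groups overlapped. The ratios were 0.26, 0.20 and 0.06, above 0 in 3 of 3 tumors, with a mean of 0.17 (SE 0.07, 95% interval 0.01 to 0.34). That mean did not pass the adjustment over all genes (limma adjusted p = 0.686), and with median centering in place of loess it was 0.02. A dimmer Cdh2 probe gave ratios of 0.24, 0.21 and 0.21. Over both probes the mean was 0.20 (limma adjusted p = 0.512). Between tumors the Cdh2 level differed by 0.25, beside a median of 0.27 over all genes.

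Cdh3 (NM_001037809) encodes P-cadherin, which marks basal and myoepithelial cells in the mammary gland. Its control cultures stood at 7.43, 8.81 and 10.65 in tumors 1, 2 and 3. Its RL cultures stood at 7.23, 9.41 and 10.17. The tumors did not overlap: both cultures of tumor 1 were lowest and both cultures of tumor 3 highest, an 8.43-fold difference between the mean levels of 7.33 and 10.41. A range of 3.07 is larger than that of 99.5% of all genes, and with the signals the scanner software processed it was 3.71 on the log2 scale. The RL ratios of Cdh3 were −0.21, 0.60 and −0.48, of mixed sign, with a mean of −0.03 (SE 0.17, 95% interval −0.41 to 0.35; limma adjusted p = 0.982). Read by dye, the same ratios as Cy5 over Cy3 were 0.21, 0.60 and 0.48, above 0 on all 3 arrays. With a dye term in the fit the mean change was 0.13 (95% interval −0.03 to 0.28; limma adjusted p = 0.655), the opposite sign. Leaving out tumor 2 changed the call, to a mean of −0.34 (limma adjusted p = 0.0102), below 0 in 2 of 2 tumors. Both arrays then carry RL in Cy3, so dye and RL cannot be told apart. Without tumor 1 the mean was 0.06 and without tumor 3 it was 0.20, where the adjusted p over all 17 alternatives ran from 0.0102 to 1.

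**Figure D2:**
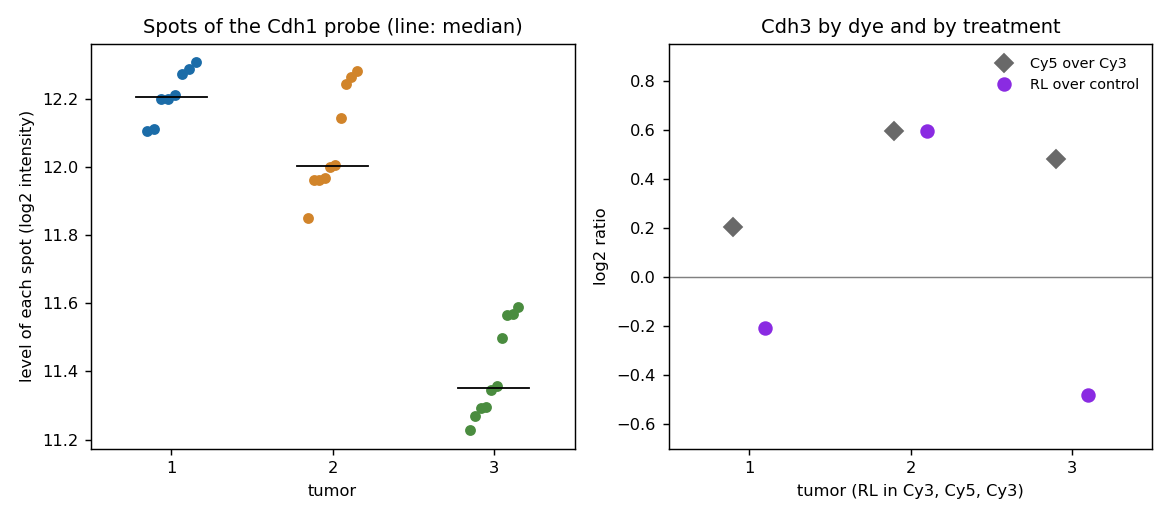
Left, level (log2 intensity) of each printed spot of the Cdh1 probe by tumor, sorted within a tumor, with a line at the median: the spots of tumor 3 end at 11.59, below the lowest spot of tumor 2 at 11.85. Right, the Cdh3 log2 ratio on each array, read as RL over control (−0.21, 0.60, −0.48) and as Cy5 over Cy3 (0.21, 0.60, 0.48).

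Epcam (NM_008532) encodes an adhesion molecule of the epithelial cell surface used to mark carcinoma cells. The control cultures read 13.62, 13.45 and 13.70 in tumors 1, 2 and 3, and the RL cultures 13.88, 13.24 and 13.79. Both cultures of tumor 2 lay lowest, and control and RL cultures overlapped. Mean levels were 13.75 in tumor 1, 13.34 in tumor 2 and 13.75 in tumor 3, where tumor 1 was highest by less than the rounding and tumor 3 was highest without Aquantile scaling between arrays. Epcam's ratios were 0.27, −0.21 and 0.09, with a mean of 0.05 (95% interval −0.17 to 0.26; limma adjusted p = 0.942) that turned to −0.02 with a dye term, −0.16 with median centering and −0.06 without tumor 1. Read as Cy5 over Cy3 they were −0.27, −0.21 and −0.09, below 0 on all 3 arrays. RL was in Cy5 for tumor 2 alone, so for Epcam and Cdh3 a part of the dye and a part of tumor 2 cannot be told apart. Among the genes chosen by name, only Cdh3 and Epcam had the same sign on all 3 arrays when read as Cy5 over Cy3. Genes of the lists below had it too, such as Cnn1 (0.71, 0.27 and 0.36) and Ovol2 (0.28, 0.23 and 0.24). The share of all genes with this pattern was not counted, so whether it stands out is not known.

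Repressors of the Snail and Zeb families bind the E-box CAGGTG, read on the other strand as CACCTG, and so the 250 bases before each start site were searched for it on both strands. RefSeq promoters (GRCm38.p6) were at hand for 4 of the 10 genes (Epcam, Snai1, Twist1 and Zeb2), in 7 windows, and 2 windows held the motif. It is present in 17.2% of all 32851 promoter windows of this length, and 2.06% hold it 2 or more times. The Epcam window, chr17:87635729-87635978 on the + strand, holds it 2 times, starting 187 and 19 bases before the start site. The Snai1 window, chr2:167537945-167538194 on the + strand, holds it 1 time, starting 126 bases before. Both are shown because they place the motif of the repressors measured here beside 2 of the measured genes, with the E-box in capitals. A match describes the letters only.
Epcam: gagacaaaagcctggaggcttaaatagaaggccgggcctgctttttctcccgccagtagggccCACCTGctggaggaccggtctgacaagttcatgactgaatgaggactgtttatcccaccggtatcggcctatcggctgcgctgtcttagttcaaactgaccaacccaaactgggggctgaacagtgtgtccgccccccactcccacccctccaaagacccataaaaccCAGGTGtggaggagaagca
Snai1: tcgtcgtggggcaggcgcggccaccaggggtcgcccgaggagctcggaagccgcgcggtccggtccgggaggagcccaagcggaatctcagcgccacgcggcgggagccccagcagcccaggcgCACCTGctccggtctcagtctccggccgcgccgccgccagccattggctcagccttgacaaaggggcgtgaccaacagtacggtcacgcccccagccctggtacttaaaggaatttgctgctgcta

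Esrp1 (NM_194055) encodes a splicing regulator that keeps epithelial isoforms of many transcripts. At its brighter probe the control cultures read 12.29, 12.44 and 12.44 in tumors 1, 2 and 3, and the RL cultures 12.22, 12.41 and 12.32. In each tumor the RL culture was the lower, and the groups overlapped. The ratios were −0.06, −0.03 and −0.12, below 0 in 3 of 3 tumors, with a mean of −0.07 (SE 0.07, 95% interval −0.23 to 0.08; limma adjusted p = 0.886). That mean was −0.24 with median centering and −0.05 without tumor 3. A dimmer Esrp1 probe gave 0.03, −0.10 and −0.20, which is not below 0 in tumor 1. The level differed by 0.17 between tumors, lowest in tumor 1 and highest in tumor 2, with tumor 3 highest in place of tumor 2 without Aquantile scaling.

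Snai1 (NM_011427) encodes Snail, a zinc finger repressor of Cdh1. In the control cultures it read 9.83, 10.64 and 9.73 in tumors 1, 2 and 3, and in the RL cultures 9.92, 10.41 and 9.63. Tumor 2 was highest in both cultures, the 3 tumors did not overlap, and control and RL did. Snai1 was 1.80-fold higher in tumor 2 than in tumor 3, a range of 0.85. Its ratios were 0.09, −0.23 and −0.10, with a mean of −0.08 (95% interval −0.26 to 0.10; limma adjusted p = 0.895). That mean was −0.16 without tumor 1, −0.004 without tumor 2 and −0.22 with median centering.

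Snai2 (NM_011415) encodes Slug, the related repressor known from basal mammary cells. It read 9.22, 9.93 and 10.95 in the control cultures of tumors 1, 2 and 3. In the RL cultures it read 9.15, 10.04 and 10.98. The tumors stood apart, with tumor 1 lowest and tumor 3 highest, the same order as for Cdh3. The 1.78 between them, 3.43-fold, is larger than the range of 97.7% of all genes. Ratios of 0.02 on average (−0.07, 0.11 and 0.04; 95% interval −0.14 to 0.19; limma adjusted p = 0.963) were of mixed sign, and the mean was −0.02 without tumor 2 and −0.10 with median centering.

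Twist1 (NM_011658) encodes a basic helix-loop-helix factor of mesoderm that represses epithelial genes. Its probe was dim, with a raw signal of 108 over a local background of 72.0 in the RL channel of tumor 2, yet was marked well above background in all 6 channels. Control levels were 6.52, 6.56 and 6.68 and RL levels 6.47, 6.49 and 6.76. The range between tumors was 0.22, and control and RL cultures overlapped. Without background correction the range was 0.35, and with the processed signals it was 0.81. The mean of the Twist1 ratios (−0.05, −0.07 and 0.08) was −0.01 (95% interval −0.17 to 0.15; limma adjusted p = 0.982), and it turned to 0.01 without tumor 1 and to 0.01 without tumor 2.

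Zeb1 (NM_011546) encodes a zinc finger and homeodomain repressor of Cdh1. The control cultures read 6.37, 7.81 and 7.15 in tumors 1, 2 and 3, and the RL cultures 6.46, 7.87 and 7.05. Tumor 1 was lowest and tumor 2 highest with no overlap between tumors, 2.68-fold apart, a range of 1.42 that is larger than that of 96.2% of all genes. In the control channel of tumor 1 the raw signal was 94.0 over a background of 69.0, and so close to background the size of a fold rests on how background is treated: with the signals the scanner software processed, the range was 2.75. Zeb1's ratios were 0.09, 0.06 and −0.10, with a mean of 0.02 (95% interval −0.15 to 0.18; limma adjusted p = 0.976) that turned to −0.02 without tumor 1 and −0.00 without tumor 2.

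Zeb2 (NM_015753) encodes the paralog of Zeb1, with the same kind of repressor activity. At its brighter probe the control cultures read 6.57, 7.22 and 7.03, and the RL cultures 6.40, 7.29 and 7.11. Tumor 1 was again lowest and tumor 2 highest with the tumors apart. The range was 0.77 on the log2 scale, 1.71-fold, and with the processed signals it was 1.75 on the log2 scale, past 2-fold. The ratios of −0.17, 0.07 and 0.09 gave a mean of −0.01 (95% interval −0.18 to 0.17; limma adjusted p = 0.990), which turned to 0.01 with a dye term, 0.01 with median centering and 0.08 without tumor 1, and was −0.20 with the processed signals. The second Zeb2 probe, the 1 of 13 not well above background throughout, passed in 3 of 6 channels, none of them in tumor 1.

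**Figure D3:**
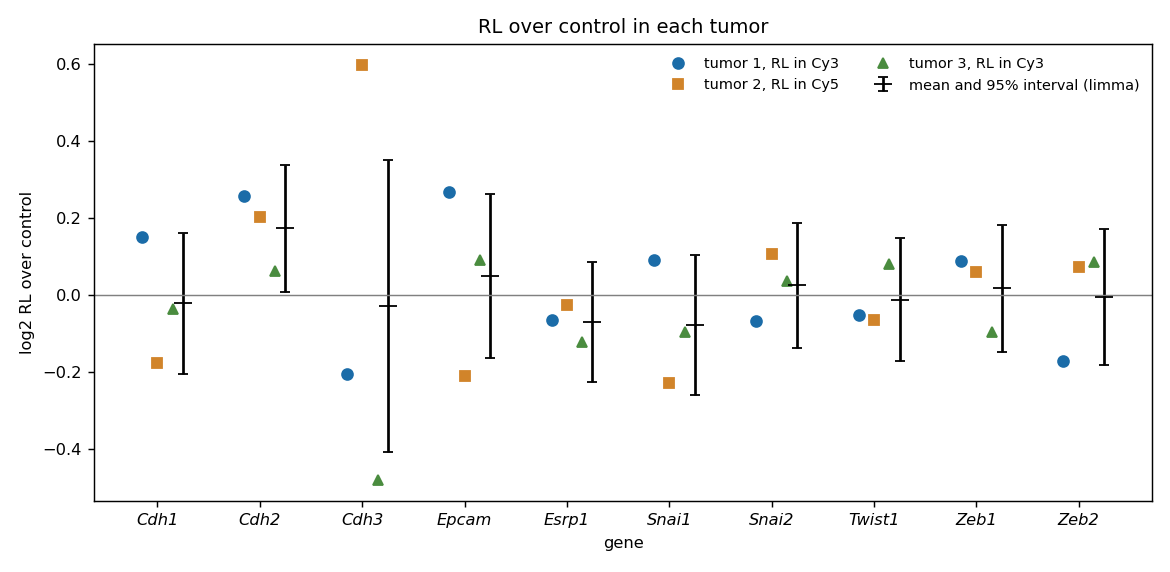
Log2 RL over control of each of the 10 genes: points are tumors, and the mean carries its 95% interval. The interval of Cdh2 alone lies above 0 (0.01 to 0.34, before adjustment), and the points of Cdh3 spread from −0.48 to 0.60.

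**Figure D4:**
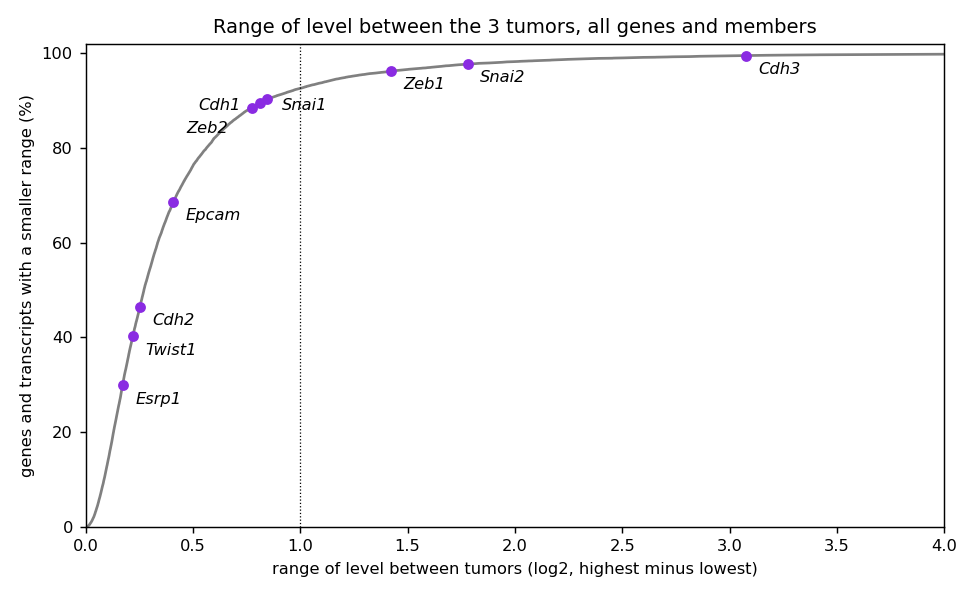
The curve gives the percentage of all genes and transcripts with a smaller range of level between tumors, against that range (log2, highest minus lowest), with the 10 genes as points and a dotted line at 2-fold. Cdh3 (3.07), Snai2 (1.78) and Zeb1 (1.42) lie past 2-fold, where 7.39% of all genes lie, and the median over all genes is 0.27.

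Junction partners, related programmes and pathways, and markers of cell types were read from 12 lists. The lists hold 127 genes, 108 of them tested and 5 of them in 2 lists (Cdh5, Acta2, Krt8, Krt18 and Krt19). Limma called 0 of the 108 at an adjusted p under 0.05, took 8 at an unadjusted p under 0.05, beside 7.17% of all genes, and the rank product took 0. Over all genes, the level was lowest in tumor 1, 2 or 3 for 36.7%, 30.0% and 33.4%, and highest for 36.2%, 38.9% and 24.9%. The counts by tumor that follow take each list gene at its brightest probe and stand beside these shares. Tgfb3, a ligand of the TGF-beta pathway that can drive the transition, had ratios of −0.41, −0.49 and −0.24, below 0 in 3 of 3 tumors (mean −0.38, SE 0.08, 95% interval −0.55 to −0.21; limma adjusted p = 0.227). Id2, an inhibitor of helix-loop-helix factors, had −0.52, −0.28 and −0.19 (mean −0.33; limma adjusted p = 0.368).

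Of 10 adherens junction partners, the catenins and nectins that cadherin contacts use, all 10 were tested with a median change of −0.01, from −0.17 for Vcl and −0.13 for Ctnna1 (n = 2, with no value in tumor 2) to 0.09 for Nectin2 and 0.15 for Nectin4. None of the 9 with a value on every array passed 2-fold between tumors, their median range being 0.33, 7 of the 9 were lowest in tumor 2, and 8 of the 9 were highest in tumor 3. Of 12 other cadherins, 4 were tested, with a median change of −0.07: Cdh15 −0.12, Cdh11 −0.08, Cdh13 −0.06 and Cdh8 0.07. The remaining 8 (Cdh4, Cdh5, Cdh6, Cdh10, Cdh16, Cdh17, Cdh22 and Cdh24) had no probe past the filter on dim signals. At the brightest probe of each, Cdh13 alone of the 4 passed 2-fold between tumors, with 7.18, 8.90 and 8.46 in tumors 1, 2 and 3. A second Cdh11 probe, above background in 4 of 6 channels and in none of tumor 2, read 6.53, 6.07 and 7.35. Its range of 1.28 is past 2-fold.

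The epithelial programme (24 of 24 tested) had a median change of −0.03, from −0.33 for Krt18 and −0.19 for Dsp to 0.15 for Cldn7 and 0.15 for Grhl3. Between tumors, 5 of the 24 passed 2-fold, the median range was 0.48, and 15 of 24 were lowest in tumor 2, as Epcam was, while Cdh1 was lowest in tumor 3 and Esrp1 in tumor 1. The mesenchymal programme (17 of 18 tested, Spock1 not) had a median change of −0.01, from −0.18 for Lox and −0.13 for Postn to 0.12 for Tnc and 0.13 for Msn. Its levels differed more between tumors: 12 of 17 passed 2-fold, the median range was 1.39 beside 0.27 over all genes, and 14 of 17 were lowest in tumor 1, as were Cdh3, Snai2, Zeb1 and Zeb2. Tumors 1, 2 and 3 had median levels of 9.91, 10.61 and 11.01 over this list. Its summed intensity was 71640, 174690 and 167084 in the control cultures and 75538, 181903 and 168577 in the RL cultures. The brightest gene, Fn1, read 14.12, 16.06 and 15.78.

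Among 13 other transcription factors of the transition, 11 were tested (Snai3 and Gsc not), with a median change of −0.04, from −0.33 for Id2 and −0.14 for Foxc2 to 0.17 for Klf8 and 0.20 for Prrx1. Of these 11, 4 passed 2-fold between tumors and 6 were lowest in tumor 1. The 12 genes of TGF-beta and BMP signalling, all tested, had a median change of 0.02, from −0.38 for Tgfb3 and −0.09 for Tgfb1 to 0.10 for Tgfb2 and 0.11 for Smad3. Here 5 of 12 passed 2-fold between tumors, the median range was 0.80, and 7 were lowest in tumor 1.

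Markers of cell types that such cultures can hold moved between tumors as well, and their part in the levels of Cdh3, Snai2, Zeb1 and Zeb2 was not tested. Of 8 myoepithelial and basal markers 7 were tested (Myh11 not), all 7 passed 2-fold between tumors at their brightest probe, and 4 of 7 were lowest in tumor 1, where Cdh3 and Snai2 were lowest. In tumor 3, where Cdh3 and Snai2 were highest, 2 of the 7 were highest, beside 4 in tumor 2 and 1 in tumor 1. Krt5 read 10.50, 12.78 and 12.74, and Trp63 read 10.74, 11.85 and 11.81, in tumors 1, 2 and 3. Tumors 2 and 3 were close for both, so the count of highest tumors rests in part on small differences. A second Krt5 probe, well above background in all 6 channels, was highest in tumor 3, with 6.48, 7.71 and 7.93. A second Trp63 probe, also well above background in all 6 channels, was not lower in tumor 1, with 11.29, 11.25 and 11.24. Oxtr went the other way, with 9.15, 8.26 and 7.34, Cnn1 was lowest in tumor 3 at 8.72 and highest in tumor 2 at 10.32, and Krt17 was lowest in tumor 2, with 13.56, 13.11 and 14.87. The summed intensity of this list was 44728, 80868 and 129409 in the control cultures and 49691, 74731 and 105807 in the RL cultures, with Krt14 brightest. Without Krt14 these sums were 15229, 24100 and 42724 in the control cultures and 19227, 23284 and 43284 in the RL cultures. In tumor 3 the RL culture then had the higher sum, the reverse of the sums with Krt14. The median change of this list was −0.12, from −0.27 for Cnn1 and −0.19 for Krt14 to 0.04 for Trp63 and 0.19 for Krt17.

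Of 9 fibroblast markers, all tested, 7 were highest in tumor 3, where Cdh3 and Snai2 were highest, and 2 in tumor 2. Tumor 2, where Zeb1 and Zeb2 were highest, was lowest for 5 of the 9. The other 4 were lowest in tumor 1, where Cdh3, Snai2, Zeb1 and Zeb2 were lowest. Between tumors 6 of 9 passed 2-fold, with a median range of 1.48. The sum of the 9 markers was 9864, 4783 and 18898 in the control cultures and 8174, 5106 and 18534 in the RL cultures, with Col1a1 brightest. Their median change was −0.05, from −0.19 for Pdgfra and −0.09 for Col3a1 to 0.05 for Thy1 and 0.09 for Fap. All 8 luminal epithelial markers were tested, with sums of 307767, 197116 and 351375 in the control cultures and 235405, 228204 and 252855 in the RL cultures, Krt18 brightest. Without Krt18 these sums were 106967, 78954 and 114051 in the control cultures and 113820, 69861 and 106512 in the RL cultures, and the RL culture then had the higher sum in tumor 1 and the lower in tumor 2, the reverse of the sums with it. Their median change was −0.13, from −0.33 for Krt18 and −0.22 for Kit to 0.03 for Prom1 and 0.07 for Gata3, and 2 of 8 passed 2-fold between tumors. Of the 8, 5 were highest in tumor 1, where Cdh3, Snai2, Zeb1 and Zeb2 were lowest. Another 1 was highest in tumor 2, and 2 in tumor 3. Tumor 1 was lowest for 1 of them, tumor 2 for 4 and tumor 3 for 3. Median levels over this list were 13.88, 13.20 and 13.19 in tumors 1, 2 and 3. The ratios of Krt18 were −0.72, 0.42 and −0.70 (limma adjusted p = 0.780). As Cy5 over Cy3 they were 0.72, 0.42 and 0.70, of 1 sign as for Cdh3, and dye and tumor 2 cannot be told apart here.

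**Figure D5:**
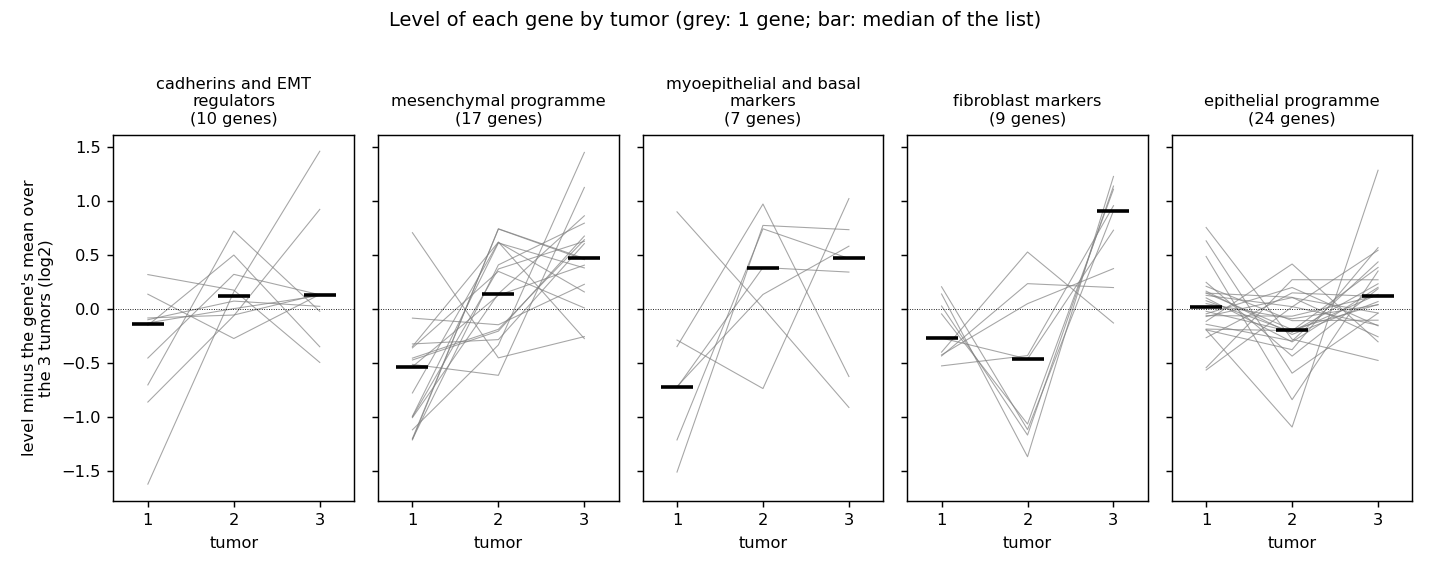
Level of each gene minus its mean over the 3 tumors (log2), 1 grey line a gene joining its 3 tumors, which have no order, with a bar at the median, for the 10 genes and 4 of the lists. Tumor 1 is lowest for 7 of the 10 genes and for 14 of 17 genes of the mesenchymal programme.

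Of 8 leukocyte markers 7 were tested (Cd79a not), with sums of 24808, 14782 and 15967 in the control cultures and 33089, 14525 and 15778 in the RL cultures and Cd14 brightest. Without Cd14 the sums were 6871, 7101 and 7862 in the control cultures and 6569, 7757 and 7334 in the RL cultures. Itgam gives most to these sums, its brightest probe reading 12.18, 12.48 and 12.34 in tumors 1, 2 and 3. Its dimmer probes, well above background in all 6 channels, read 6.68, 6.42 and 6.69, and 6.43, 6.31 and 6.28. Ptprc, above background in 5 of 6 channels, read 6.26, 6.20 and 6.495, and Adgre1 read 6.37, 6.32 and 6.48. The other tested markers were brighter, the dimmest of them Lyz2 at 8.40, 7.67 and 7.85. How far these sums follow leukocytes was not tested. Of the 7, 5 were lowest in tumor 2 and 1 in tumor 1, and 2 were highest in tumor 1, 2 in tumor 2 and 3 in tumor 3. Their median change was 0.03, from −0.09 for Lyz2 and −0.03 for Itgam to 0.05 for Ptprc and 0.15 for Cd14. Of 6 endothelial markers 2 were tested, Pecam1 (−0.11) and Kdr (0.11), both lowest in tumor 3, while the defining Cdh5, Tek, Emcn and Vwf did not pass the filter. Cdh5 and Emcn were well above background in both channels of tumor 3, where Cdh3 and Snai2 were highest, and in no other channel: Cdh5 read 6.11, 6.05 and 6.83 in tumors 1, 2 and 3, and Emcn 6.08, 5.79 and 6.58. Pecam1, above background in all 6 channels, read 7.36, 7.28 and 7.28, and Tek, above it in none, 5.91, 5.93 and 6.05. Vwf, above background in 4 of 6 channels, read 6.43, 6.09 and 6.80. Their part in the levels of Cdh3 and Snai2 was not tested. The sum of the tested pair was 2087, 2125 and 1839 in the control cultures and 2314, 2044 and 2071 in the RL cultures, with Kdr brightest and a median change of −0.00. A dimmer Kdr probe read 6.62, 6.30 and 7.31, highest in tumor 3, where the brighter one was lowest. Of 4 adipocyte markers only Fabp4 was tested (0.16; Adipoq, Plin1 and Cidec not), at an intensity of 173, 682 and 358 in the control cultures and 209, 656 and 431 in the RL cultures.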

How the data were processed

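The authors deposited, for 3 2-colour Agilent arrays, the scanner output of Feature Extraction 10.7.3.1 (per the submitters' processing notes), with spot and background signals as intensity and Cy5 over Cy3 as log10 ratios, and a table of normalized log2 ratios. The files hold no mean spot signal, so median signals were used. The deposited log2 table ran as Cy5 over Cy3: turned by dye, it had r of 0.962, 0.956 and 0.962 with the ratios computed here and slopes of 1.15 to 1.18.

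In R 4.3.3 with limma 3.58.1, signals were background-corrected (normexp, offset 50). Control spots and outlier spots were dropped, leaving 59305 probe spots an array less 204, 195 and 223 outliers. Loess by intensity, spatial loess (span 0.1) and Aquantile scaling followed. Spots of a probe were averaged, and the brightest probe of a gene was kept among the 29429 marked well above background in every control or every RL channel. A level is the mean log2 intensity of both dyes, and a culture's level is that mean plus or minus the ratio divided by 2. The control and RL cultures of a tumor were paired by the labels, and limma tested the 3 ratios, with Benjamini-Hochberg adjustment over 21743 genes and transcripts (threshold 0.05). The rank product used 100 permutations. The limma fit and the rank product were tested on simulated log2 ratios with no dye effect. The steps before them were not tested in this way.

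Named were the 10 genes, every list gene past the threshold (none), and the 2 highest and 2 lowest changes of each list. Krt5, Oxtr, Fn1, Col1a1, Ovol2, Adgre1, Cdh5, Emcn, Tek and Vwf were named after their values were seen. Lists were adherens junction partners, other cadherins, the epithelial and mesenchymal programmes, other transcription factors of the transition, TGF-beta and BMP signalling, and markers of fibroblasts, endothelium, leukocytes, myoepithelial and basal cells, luminal cells and adipocytes. A further marker list of the design is not reported. The 10 genes and the lists were chosen by name, with earlier results of these data known. Alternatives changed background, normalization, filter, probe choice, fit and replicates.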

Additional observations from a re-analysis of the deposited data

How the results depend on the processing

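The changes of the 10 genes were computed under 17 alternatives each. Of 170 values 77 equal the reported one, since settings such as the rank product, the intensity trend or Aquantile leave a mean ratio as it is. Of the other 93, 77 kept their sign and 16 changed it. Limma called 1 (Cdh3 without tumor 2, −0.34, adjusted p = 0.0102, where its alternatives ran from 0.0102 to 1). Over all alternatives Cdh2 ran from 0.02 to 0.23, Esrp1 from −0.24 to −0.05, Snai1 from −0.22 to −0.004 (nearest 0 without tumor 2) and Zeb2 from −0.20 (processed signals) to 0.079. Signs turned with a dye term for Cdh3 (0.13), Epcam (−0.016) and Zeb2 (0.014), and with median centering for Epcam (−0.16), Snai2 (−0.10) and Zeb2 (0.011). Leaving out 1 tumor turned the sign of 7 genes: it gave −0.11 to 0.055 for Cdh1, −0.34 to 0.20 for Cdh3, −0.061 to 0.18 for Epcam, −0.016 to 0.071 for Snai2, −0.058 to 0.014 for Twist1, −0.019 to 0.073 for Zeb1 and −0.051 to 0.079 for Zeb2. The causes were not tested.

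Over all genes, limma raised 1 and lowered 5. The rank product took 37 and 54. The dye term gave 136 and 178, an intensity trend in eBayes 12 and 28, no background correction 6 and 12, and keeping dim probes 0 and 3. They were 0 and 0 with the processed signals, with median centering, and with cultures compared without the tumor as a replicate block. Requiring all 6 channels above background raised 0, and the authors' log2 ratios raised 2. Leaving out 1 tumor gave 0 to 636 raised and 2 to 927 lowered, both highest without tumor 2. Both arrays left in that case have RL in Cy3, so dye and RL cannot be told apart there.

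Of 50 level ranges 18 equal the reported one (all without spatial loess, which acts on the ratio, and 8 with the mean over probes). Of the other 32, 21 stayed within the gene's own SD between the cultures of a tumor, and 11 moved beyond it. That SD differs by gene (0.32 for Cdh3, 0.05 for Twist1), so the tolerance is not the same for all. Among alternatives with a differing value, Cdh3, Snai2 and Zeb1 passed 2-fold in 3 of 3 each and Zeb2 in 1. The lowest tumor was kept in 32 of 32 and the highest in 30 of 32 (not Epcam and Esrp1 without Aquantile). Genes over 2-fold between tumors numbered 1606, and 2888 with the processed signals. Signals near background limit Twist1, Zeb1 and Zeb2, and the Cdh3 range was 3.71 with the processed signals.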

Other observations

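The RL over control ratios of the arrays, over all genes, had r of −0.110 between tumors 1 and 2, 0.452 between tumors 1 and 3, and −0.106 between tumors 2 and 3. Tumors 1 and 3 share the dye order. These correlations are across genes, which are not independent replicates.

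The 6 genes that limma called, named after their values were seen, were Ubd, raised, and Lalba, Wap, Foxi1, Lrg1 and Csn1s1, lowered. None of them is among the 10 genes or the lists.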
